A study of Mus musculus with 4 samples.

Results

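Exchangeable apolipoproteins are the small protein coats of plasma lipoproteins, and their 10 genes on the array (Apoa1, Apoa2, Apoa4, Apoa5, Apoc1, Apoc2, Apoc3, Apoc4, Apoe and Apom) were followed here in mouse liver lacking Ilrun. The members were chosen by gene name: any non-control probe whose name in the files, or whose RefSeq accession, pointed to one of them. This gave 11 of 39429 probes and 10 of 31709 genes, and all 10 were bright enough to be tested, among 19702 genes tested in all. In IlrunKO liver Apoc2, the cofactor of lipoprotein lipase, rose 1.65-fold. It was the 1 member of 10 that passed the test, where 1.38% of all genes tested did. Apom, Apoa4, Apoa1 and Apoc4 were lower in every IlrunKO mouse than in any WT mouse, without passing. Of all genes tested, 8.92% had levels that did not overlap between genotypes, in either direction. The differences were 1.64-fold to 1.18-fold for Apom, Apoa1 and Apoc4, and 1.86-fold for Apoa4, whose spots were the dimmest of the 10. Apoe, Apoc1, Apoc3 and Apoa2 gave ratios whose sign turned with the dye that the IlrunKO sample carried.

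The tested mice were male whole-body Ilrun knockouts (IlrunKO), and their controls were male wild-type mice (WT). There were 4 liver samples of each genotype, each taken here to be 1 mouse. The mice were of strain C57BL/6, kept on chow and without food for the last 4 h before liver collection. Neither the ages of the mice, nor the part of Ilrun that was removed, nor whether RNA of several mice was pooled is given in the sources used here, and the deletion is not limited to the liver. Each of 4 two-colour arrays held RNA of 1 IlrunKO and 1 WT liver: on arrays 1 and 2 the IlrunKO sample was labelled with Cy5 (red) and the WT sample with Cy3 (green), and on arrays 3 and 4 the dyes were exchanged. The number of arrays limits the precision of every value.

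These proteins are built largely of amphipathic helices that lie on the surface of a lipoprotein, which lets them move between chylomicrons, very-low-density lipoprotein (VLDL) and high-density lipoprotein (HDL) in plasma, while Apob stays on the particle it was made with. Apom is the exception in shape: it is a lipocalin, held on HDL by its uncleaved signal peptide. The liver is a main source of most of them, and together they act as ligands for uptake receptors, as cofactors or inhibitors of lipases, and as acceptors of cell cholesterol. Many of their genes lie in tandem, with Apoa1, Apoc3, Apoa4 and Apoa5 in one cluster and Apoe, Apoc1, Apoc4 and Apoc2 in another.

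The array reads each gene through 60-base probes, and those of 5 members are printed because the described differences rest on them. Letters are those in the files, 5′ to 3′, with no base singled out; positions are of mouse build mm9, and probes were not assigned to exons or UTRs, because the gene models used here belong to another build. The probes of Apoe (chr7:20281732-20281791, minus strand) and Apoa1 (chr9:46037921-46037980, plus strand) were printed on 10 spots of each array. The probes of Apoa4 (chr9:46049661-46050404, plus strand) and Apoc4 (chr7:20263609-20263965, minus strand) span 744 and 357 bases of the genome with 60 bases of sequence, as a probe across a splice junction does. The Apom probe lies at chr17:35267047-35267106 on the minus strand.
Apoe: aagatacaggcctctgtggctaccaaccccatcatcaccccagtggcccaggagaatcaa
Apoa1: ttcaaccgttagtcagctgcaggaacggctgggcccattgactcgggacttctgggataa
Apoa4: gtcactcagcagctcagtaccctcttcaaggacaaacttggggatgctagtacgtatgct
Apoc4: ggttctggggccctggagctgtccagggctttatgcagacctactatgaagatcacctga
Apom: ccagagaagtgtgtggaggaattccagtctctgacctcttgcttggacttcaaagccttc

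The polyadenylation signal AATAAA, which lies close to the end of most transcripts, occurred in 3 of the 11 members' probes, against 12.6% of all 39429 probes. These were the probes of Apoc1 and Apoc3 and 1 of the 2 probes of Apoa2; the other 8 held no such run of letters.

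Promoters are shown for Apoc2, which passed, and for Apom, which had the next smallest p and a ratio of nearly the same size in the opposite direction. Each line is the 250 bases before the RefSeq transcript start (build GRCm38.p6, 5′ to 3′ on the gene's strand), Apoc2 at chr7:19677942-19678191 and Apom at chr17:35131802-35132051, both on the minus strand. Capitals mark AGGTCA and GGGTCA, half-site letters to which many nuclear receptors bind, searched on both strands.
Apoc2: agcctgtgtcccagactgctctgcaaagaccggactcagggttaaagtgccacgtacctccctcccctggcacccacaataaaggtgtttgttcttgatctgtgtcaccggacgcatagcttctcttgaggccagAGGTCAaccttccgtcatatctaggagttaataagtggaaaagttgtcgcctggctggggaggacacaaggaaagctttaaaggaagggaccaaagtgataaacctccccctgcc
Apom: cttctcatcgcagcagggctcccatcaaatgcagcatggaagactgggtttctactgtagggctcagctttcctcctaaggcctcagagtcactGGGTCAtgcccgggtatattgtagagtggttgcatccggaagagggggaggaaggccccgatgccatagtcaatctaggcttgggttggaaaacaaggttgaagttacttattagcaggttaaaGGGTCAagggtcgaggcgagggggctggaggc
The Apoc2 window held 1 AGGTCA, beginning 115 bases before the start, and the Apom window held 2 GGGTCA, beginning 156 and 32 bases before it. In RefSeq 142 bases lie between Apoc2 and Apoc4, so the far end of the Apoc2 window reaches into the Apoc4 gene. Of the 8 members found in the promoter table, AGGTCA occurred in Apoc2, Apoc4 and Apoa2, against 15.8% of 27025 genes, and GGGTCA in Apom, Apoe and Apoa5, against 13.1%. The letters TATAAA, the usual core of a TATA box, occurred in Apoa5, Apoe and Apoa2, against 14.3% of genes. A match of letters is a description of the sequence and not a bound site.

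Ilrun itself was read first, as a check of the genotype labels. Its brighter probe (named D17Wsu92e in the files, chr17:27888506-27888565) had log2 levels of 7.97, 7.99, 7.99 and 7.75 in IlrunKO livers, against 12.10, 12.10, 12.03 and 12.32 in WT livers. Every IlrunKO mouse was far below every WT mouse, and the gene fell 18.5-fold: the log2 ratio was -4.21 ± 0.24 (SD, n = 4), at an adjusted p of 0.00337. With the mean of the gene's probes, which brings in a dimmer one, the ratio was -3.18 (adjusted p = 0.0186). Across the array 271 of 19702 genes passed at an adjusted p under 0.05 (1.38%), 0.716% upward and 0.66% downward, and 8.92% of genes had levels that did not overlap between genotypes. Between 60.0% and 64.5% of probes were well above background in IlrunKO channels, and between 61.0% and 67.3% in WT channels. All arrays shared 1 slide and 1 scan.

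Liver identity was plain in both genotypes: all 15 hepatocyte markers were well above background, and their summed level (log2) ran from 19.8 to 20.3 in IlrunKO livers and from 20.0 to 20.4 in WT livers. None of the 15 passed (8 had an unadjusted p under 0.05); 12 lay below 0 and 3 above. The intestine also makes Apoa1 and Apoa4, and 5 of 7 enterocyte markers (Vil1, Alpi, Lct, Cdx2 and Cdx1) were not well above background, while Fabp2 stood at 0.47 (adjusted p = 0.293) and Sis at 0.0044 (adjusted p = 0.972). Of 10 adipocyte markers 7 were tested and 2 rose (Cfd and Adrb3), where 0.716% of all genes tested rose. Of the 7 tested, 6 lay above 0 and 1 below (Fabp4, -0.11), and 6 had an unadjusted p under 0.05. Adipoq, Lep and Plin1, which define the fat cell, were not well above background. The summed level of the adipocyte list (log2) ran from 16.6 to 17.2 in IlrunKO livers and from 15.4 to 16.5 in WT livers, without overlap. Of 14 Kupffer cell and macrophage markers 13 had a mean above 0 and none passed (8 had an unadjusted p under 0.05). Their mean ratios were -0.17, 0.87, 0.54 and 0.51 on arrays 1 to 4, so array 1 went the other way. Macrophages also make Apoe, and the summed level ran from 15.3 to 15.9 in IlrunKO livers and from 15.0 to 15.6 in WT livers. All 11 stellate cell and fibroblast markers lay below 0, with a median of -0.31, and none passed (10 had an unadjusted p under 0.05). Their summed level (log2) did not overlap between genotypes, at 14.6 to 15.1 in IlrunKO livers and 15.2 in all WT livers. Of 8 endothelial markers 7 lay below 0 and none passed (4 had an unadjusted p under 0.05), with sums of 14.4 to 14.6 in IlrunKO livers and 14.5 to 14.7 in WT livers. Of 5 cholangiocyte markers 4 were tested, 2 above 0 and 2 below, none passed (1 had an unadjusted p under 0.05), and Epcam was not well above background. The part of these cell types in the apolipoprotein values was not tested. In a piece of whole liver, fewer cells of a type and less RNA per cell cannot be told apart.

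Values below are channel levels (log2 of the normalised signal, comparable within 1 probe only) in mice 1 to 4 of each genotype, and log2 ratios of IlrunKO over WT on arrays 1 to 4 with their mean ± SD. The words rose and fell are kept for genes that limma called at an adjusted p under 0.05 over all genes tested.

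**Figure D1:**
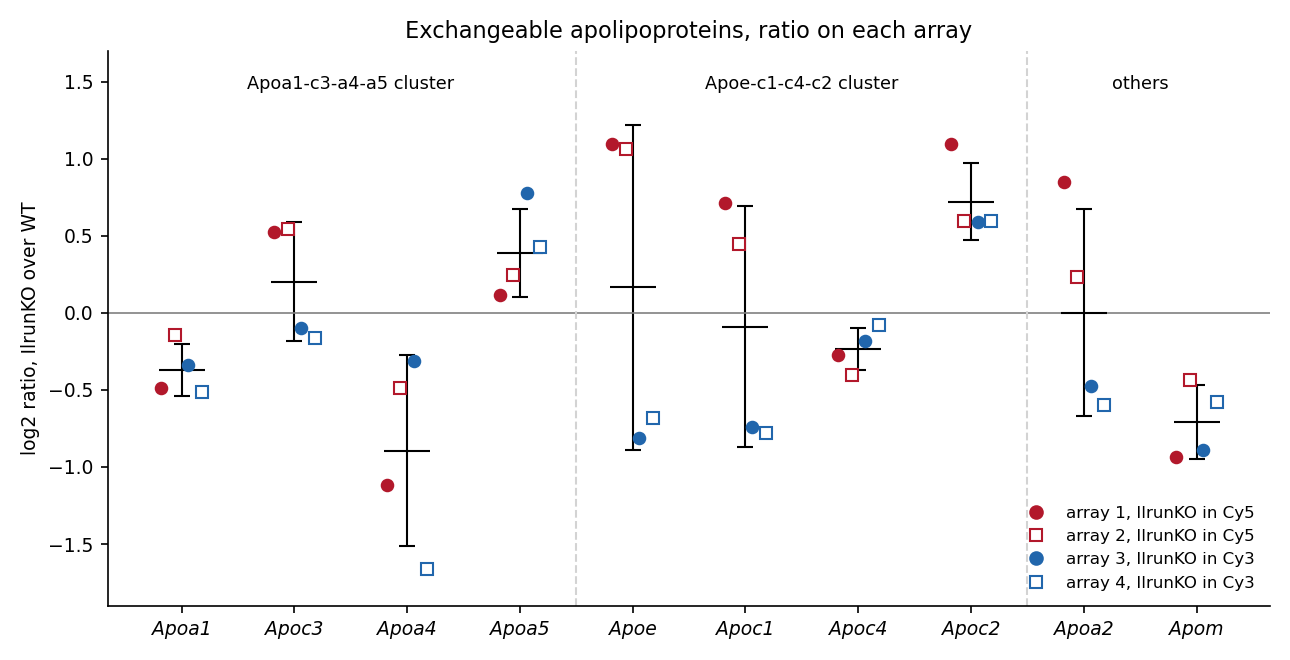
Log2 ratio of IlrunKO over WT (vertical axis) for the 10 genes, grouped by gene cluster. Each symbol is 1 array, red where IlrunKO carried Cy5 and blue where it carried Cy3; black bars give the mean and SD of 4 arrays. Apoc2 lay above 0 on all arrays, Apom, Apoa1, Apoa4 and Apoc4 below 0 on all arrays, and red and blue fell on opposite sides of 0 for Apoe, Apoc1, Apoc3 and Apoa2.

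The first members act on the lipolysis of triglyceride in plasma. Apoc2 is the obligate cofactor of lipoprotein lipase, the enzyme that frees fatty acids from chylomicrons and VLDL. Apoc2 had levels of 16.15, 15.95, 16.12 and 16.15 in IlrunKO livers, against 15.05, 15.35, 15.53 and 15.55 in WT livers. The 4 IlrunKO mice lay together above the 4 WT mice with no overlap, and the lowest single value was that of WT mouse 1. The ratios were 1.09, 0.60, 0.59 and 0.60, a mean of 0.72 ± 0.25 (SD, n = 4), and Apoc2 rose with an adjusted p of 0.0474. Array 1 stood apart, and the other 3 arrays lay close together. The call lay close to the threshold: without array 3 the mean was 0.72 with an adjusted p of 0.206, and without array 4 it was 0.72 with an adjusted p of 0.164. Apoc2 also missed the threshold with Agilent processed signals (adjusted p = 0.0799), median centring (0.365), the mean of a gene's probes (0.0509) and a trended robust variance (0.258).

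Apoc3, an inhibitor of lipoprotein lipase and of the hepatic uptake of remnants, had levels of 17.02, 16.99, 16.93 and 16.77 in IlrunKO livers, against 16.49, 16.45, 17.03 and 16.93 in WT livers. The groups overlapped: IlrunKO was the higher on arrays 1 and 2 and the lower on arrays 3 and 4. The ratios were 0.52, 0.54, -0.10 and -0.16, a mean of 0.20 ± 0.38 (SD, n = 4), with an adjusted p of 0.110. A further transcript within the cluster, listed as ENSMUST00000118649 and described in the files as an apolipoprotein C-III precursor, was not a member by name and stood at -0.068 ± 0.40 (SD, n = 4; adjusted p = 0.492), with the same signs as Apoc3 on each array (0.29, 0.26, -0.46 and -0.36).

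Apoa5, a liver protein of very low plasma concentration that lowers plasma triglyceride, had levels of 13.10, 12.92, 13.40 and 13.23 in IlrunKO livers, against 12.98, 12.68, 12.62 and 12.80 in WT livers. IlrunKO was the higher on each array, but IlrunKO mouse 2 lay below WT mouse 1, so the groups overlapped. The ratios were 0.12, 0.24, 0.77 and 0.43, a mean of 0.39 ± 0.29 (SD, n = 4), with an adjusted p of 0.0854.

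**Figure D2:**
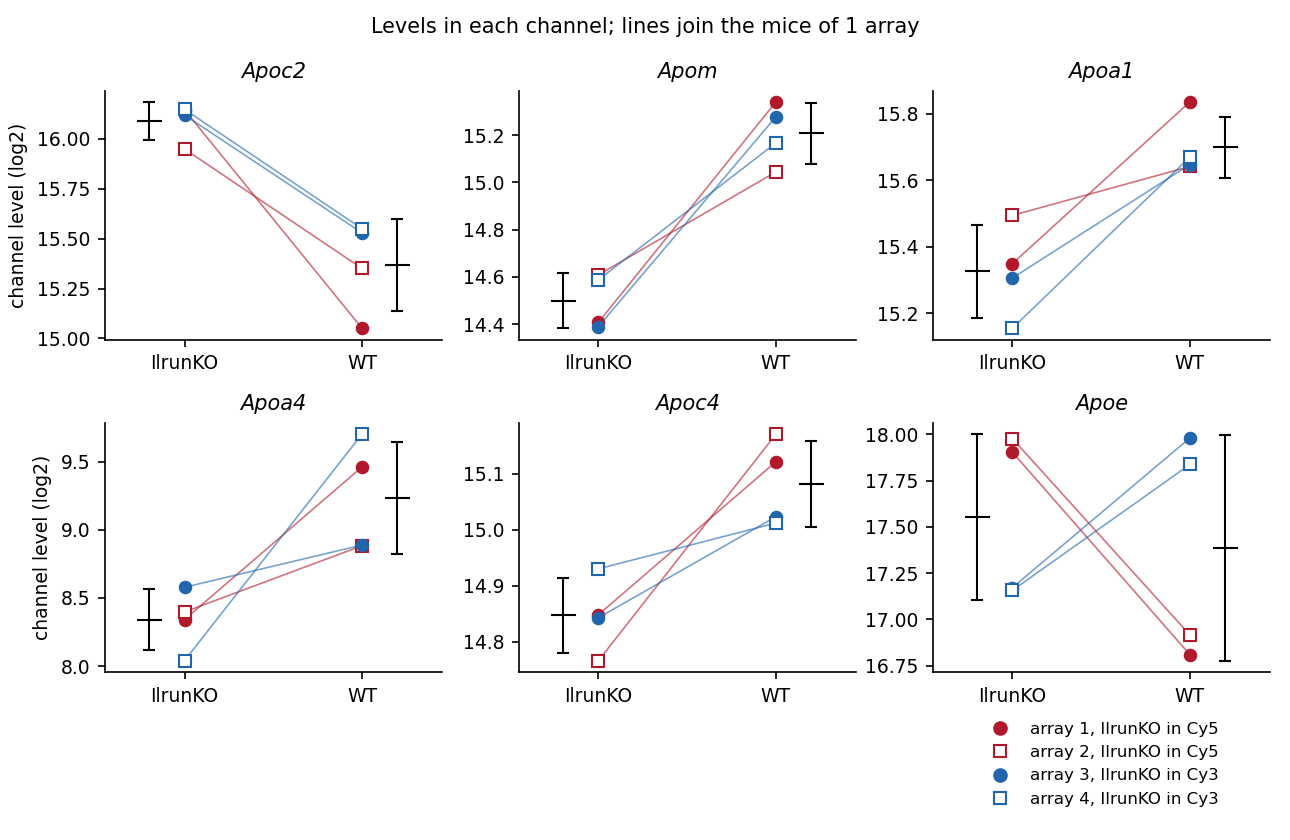
Channel level (log2, vertical axis, with its own range in each panel) of 6 genes in IlrunKO and WT livers; a line joins the 2 mice of 1 array, and black bars give mean and SD of 4 mice. IlrunKO lay above WT throughout for Apoc2 (15.95 to 16.15, against 15.05 to 15.55 in WT) and below it for Apom, Apoa1, Apoa4 and Apoc4, while the lines of Apoe crossed by dye.

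Among proteins of HDL, the values of Apom and Apoa1 lay below 0 on every array. Apom carries sphingosine-1-phosphate on HDL. Its levels were 14.41, 14.61, 14.39 and 14.59 in IlrunKO livers, against 15.34, 15.04, 15.28 and 15.17 in WT livers. The highest IlrunKO mouse lay clearly below the lowest WT mouse. The ratios were -0.93, -0.44, -0.89 and -0.58, a mean of -0.71 ± 0.24 (SD, n = 4), in size close to that of Apoc2 with the opposite sign. Apom did not pass, with an adjusted p of 0.0588, and only 1.05% of genes had a larger ratio in either direction. It passed without array 2, at -0.83 with an adjusted p of 0.0391, in a fit whose residual spread came from arrays 3 and 4 alone. Without array 1, 3 or 4 it did not pass, at -0.585, -0.63 and -0.79. Nor did it pass with median centring (adjusted p = 0.279) or a trended robust variance (adjusted p = 0.258). Apom and Ilrun are both on chromosome 17, and their probes are 7.38 Mb apart.

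Apoa1 is the main structural protein of HDL and activates the cholesterol-esterifying enzyme Lcat. Its levels were 15.35, 15.49, 15.31 and 15.16 in IlrunKO livers, against 15.84, 15.64, 15.65 and 15.67 in WT livers. All 4 IlrunKO mice lay below all 4 WT mice, and WT mouse 1 stood above the other 3, which lay close together. The ratios were -0.49, -0.15, -0.34 and -0.51, a mean of -0.37 ± 0.17 (SD, n = 4), with an adjusted p of 0.0940. Over the 7 to 10 usable spots of an array, the SD of the ratio was 0.053 to 0.10, which covers spot noise within an array only.

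Apoa4, which mice make in intestine and liver and carry on HDL and chylomicrons, had levels of 8.34, 8.40, 8.58 and 8.04 in IlrunKO livers, against 9.46, 8.88, 8.89 and 9.70 in WT livers. The groups did not overlap, and WT mice were the more scattered. The ratios were -1.12, -0.49, -0.31 and -1.66, a mean of -0.89 ± 0.62 (SD, n = 4), and Apoa4 did not pass at an adjusted p of 0.149. Apoa4 was the dimmest member, ranked 8529 of 19702 genes by brightness of the spot, though well above background in all channels. Its mean ratio was -1.02 with a normexp offset of 0 and -1.06 with Agilent processed signals. Its size rested in part on array 4, without which the mean was -0.56 (adjusted p = 0.230).

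Apoa2, the second most abundant protein of HDL, had 2 probes. The brighter had levels of 17.89, 17.65, 17.15 and 17.12 in IlrunKO livers, against 17.04, 17.42, 17.62 and 17.72 in WT livers, with ratios of 0.85, 0.23, -0.47 and -0.60. Its mean was 0.0013 ± 0.67 (SD, n = 4), with a 95% confidence interval of 0.29 to either side and an adjusted p of 0.998. The second probe gave 1.01, 0.65, -0.95 and -0.87 on the 4 arrays, a mean of -0.04 (adjusted p = 0.809 over all probes). Both Apoa2 probes were above 0 on arrays 1 and 2 and below 0 on arrays 3 and 4.

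Apoe is the ligand by which remnants of triglyceride-rich lipoproteins are taken up by the liver. Its levels were 17.90, 17.98, 17.17 and 17.16 in IlrunKO livers, against 16.81, 16.92, 17.98 and 17.84 in WT livers. IlrunKO was the higher on both arrays where it carried Cy5, and WT was the higher on both arrays where WT carried Cy5. The ratios were 1.09, 1.06, -0.81 and -0.68, a mean of 0.17 ± 1.05 (SD, n = 4), with an adjusted p of 0.166. Within an orientation the mean was 1.08 with IlrunKO in Cy5 and -0.74 with IlrunKO in Cy3, and with median centring in place of loess the mean of 4 arrays was -0.026. The SD over its 9 or 10 spots of an array was 0.057 to 0.085, which covers spot noise within an array only.

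Apoc1, which inhibits the binding of remnants to receptors, followed the same order. Its levels were 17.59, 17.42, 16.83 and 16.81 in IlrunKO livers, against 16.88, 16.97, 17.57 and 17.59 in WT livers, with ratios of 0.71, 0.45, -0.74 and -0.78. The groups overlapped, the mean was -0.09 ± 0.78 (SD, n = 4) and the adjusted p was 0.484.

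Apoc4, a minor protein of VLDL, had levels of 14.85, 14.77, 14.84 and 14.93 in IlrunKO livers, against 15.12, 15.17, 15.02 and 15.01 in WT livers. The 4 IlrunKO mice lay below the 4 WT mice by a narrow margin. The ratios were -0.27, -0.40, -0.18 and -0.08, a mean of -0.23 ± 0.14 (SD, n = 4), with an adjusted p of 0.106.

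Set side by side, 1 of the 10 members passed (Apoc2, upward), where 1.38% of all genes did. In 5 of 10 the levels of the genotypes did not overlap (Apoc2 with IlrunKO above, Apom, Apoa1, Apoa4 and Apoc4 with IlrunKO below), where 8.92% of all genes had this. An adjusted p under 0.1 was found for 4 of 10 (Apoc2, Apom, Apoa5 and Apoa1), where 5.72% of all genes had one, and an unadjusted p under 0.05 for 8 of 10, where 20.5% had one. In the fit over all probes, in which 1.52% passed, 1 of the 11 did (Apoc2, adjusted p = 0.0450). The median ratio of the 10 was -0.044 and the median size of the ratio without its sign was 0.30, against -0.0014 and 0.075 over all genes tested. Since only the spread within a dye orientation enters the error of the fit, Apoe could have a narrow 95% confidence interval (0.13 to either side) beside an SD of 1.05.

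The members whose ratio turned with the dye were the 4 with the brightest spots. The dye term of the fit, the part of the log2 ratio that changes sign with the orientation, was 0.91 for Apoe, 0.67 for Apoc1, 0.54 for Apoa2 and 0.33 for Apoc3. Larger dye terms, in either direction, were found in 0.061%, 0.437%, 0.839% and 3.00% of genes, in that order. By brightness of the spot, which is no measure of transcript number between probes, Apoe ranked 7, Apoa2 8, Apoc1 17 and Apoc3 47 of 19702 genes, and Apoc2, the next member, ranked 204. The other members, which kept 1 sign on 4 of 4 arrays as 23.2% of all genes did, ranked from 204 to 8529.

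Other bright genes showed the same order of signs. Leaving out the 10 members, the 50 brightest genes had median ratios of 0.43, 0.48, -0.52 and -0.39 on arrays 1 to 4, and 30 of these 50 (60%) had the signs of Apoe on all arrays. The share was 29.1% among the next 450 genes and 13.7% among the rest. The 15 hepatocyte markers had mean ratios of 0.087, 0.23, -0.31 and -0.48 on arrays 1 to 4. No gene passed for the dye term itself at an adjusted p under 0.05 (0 of 19675 in limma, 3601 with an unadjusted p under 0.05), the lowest adjusted p being 0.0810 and that of Apoe 0.0824. The mice of arrays 1 and 2 differed from those of arrays 3 and 4, so the dye and the mice cannot be told apart.

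**Figure D3:**
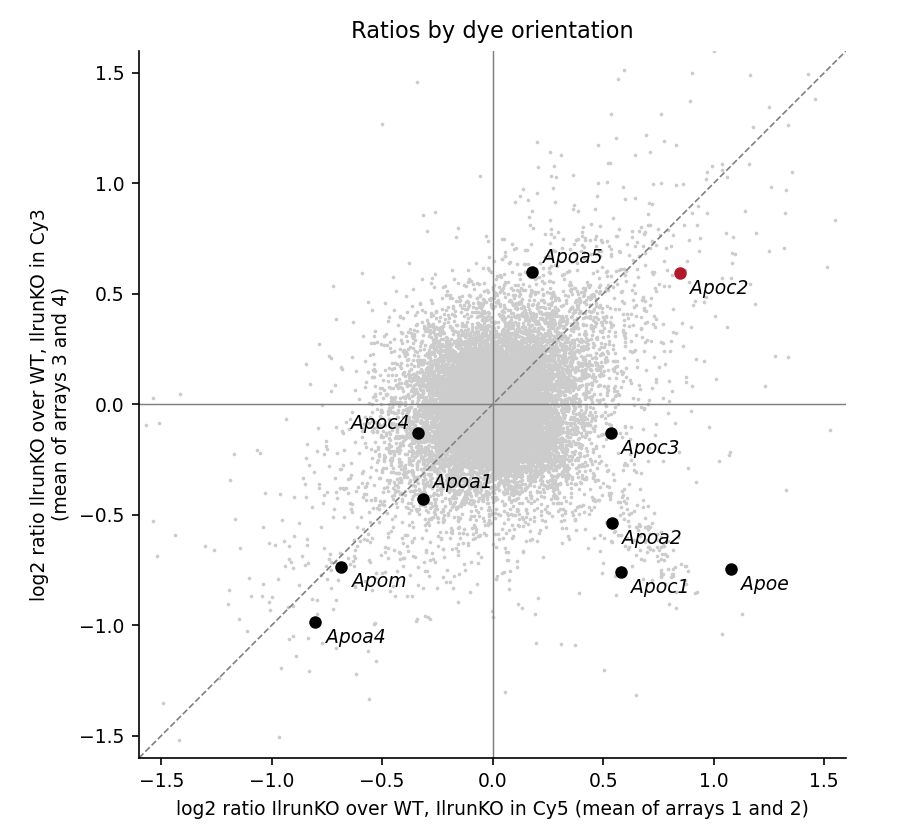
Mean log2 ratio of IlrunKO over WT on the arrays with IlrunKO in Cy5 (horizontal axis) and in Cy3 (vertical axis). Grey points are 19531 genes measured on all arrays (35 genes beyond 1.6 in size are not drawn), named points the 10 members, Apoc2 in red; on the dashed line both orientations give the same ratio. Apoe, Apoc1, Apoa2 and Apoc3 lay in the lower right, with opposite signs in the 2 orientations.

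The gene clusters were compared by the mean ratio of their 4 members on each array, without a test. The Apoe cluster (probes within chr7:20257027-20281791, 24.8 kb) gave 0.66, 0.43, -0.28 and -0.24, a mean of 0.14 ± 0.47 (SD, n = 4). The sign of this cluster turned with the dye, as did those of its members Apoe and Apoc1. The Apoa1 cluster (probes within chr9:46037921-46080002, 42.1 kb) gave -0.24, 0.039, 0.0061 and -0.48, a mean of -0.17 ± 0.24 (SD, n = 4). The difference, Apoe cluster minus Apoa1 cluster, was 0.90, 0.39, -0.29 and 0.24, a mean of 0.31 ± 0.49 (SD, n = 4), smaller than its spread over the arrays and below 0 on array 3. In each cluster the mean ratio was above 0 for 2 members and below 0 for 2, though Apoe turned below 0 with median centring (-0.026), as did the mean of its cluster (-0.04).

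**Figure D4:**
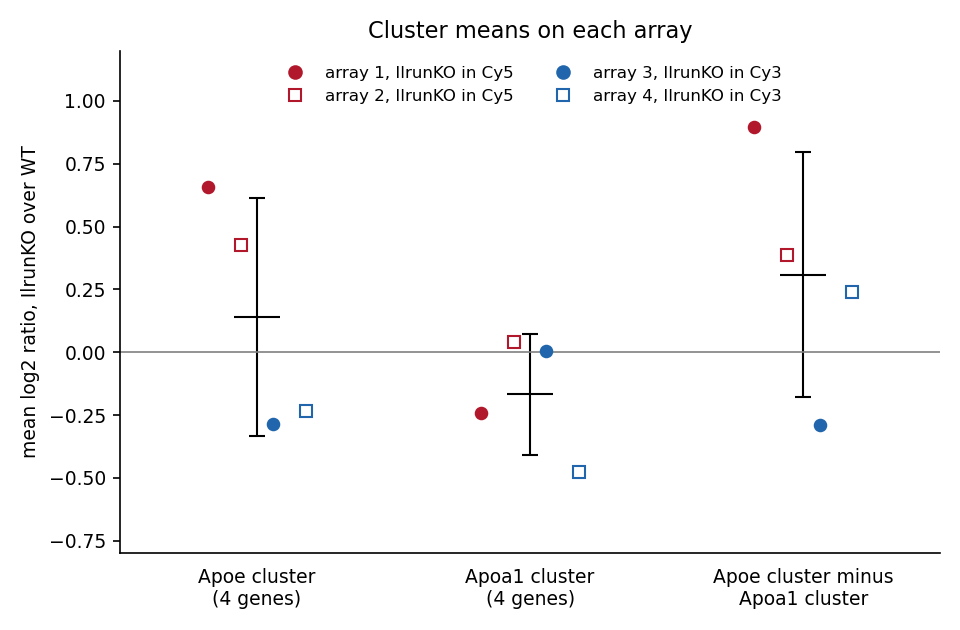
Mean log2 ratio of IlrunKO over WT of the 4 genes of each cluster, and the difference between clusters (vertical axis). Each symbol is 1 array, red with IlrunKO in Cy5 and blue with IlrunKO in Cy3; black bars give mean and SD of 4 arrays. The difference of 0.31 ± 0.49 had both signs among the arrays.

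Some neighbours within a cluster differed from each other in the same direction on every array. Apoc2 minus Apoc4, genes that are 142 bases apart in RefSeq (GRCm38.p6), was 1.37, 1.00, 0.77 and 0.68 on arrays 1 to 4, a mean of 0.95 ± 0.31 (SD, n = 4) or 1.94-fold. Apoa5 minus Apoa4 was 1.24, 0.73, 1.08 and 2.09, a mean of 1.28 ± 0.58. Apoa5 minus Apoa1 was 0.60, 0.39, 1.12 and 0.94, a mean of 0.76 ± 0.33. In all 3 pairs the first gene had the higher ratio of IlrunKO over WT on 4 of 4 arrays. Apoc3 minus Apoa1 was likewise above 0 on all arrays (1.01, 0.69, 0.24 and 0.35), and Apoe minus Apoc1 was not (0.38, 0.61, -0.069 and 0.099). Across the clusters, Apoc2 minus Apoc3, the cofactor set against the inhibitor of lipoprotein lipase, was 0.57, 0.053, 0.69 and 0.76, a mean of 0.52 ± 0.32 (SD, n = 4). These pairs were picked after their values were seen and were not tested.

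Other genes with a probe within 100 kb of the members' probes were looked at, and none passed (limma; 11 of 46 had an unadjusted p under 0.05). At the Apoa1 cluster the 3 genes outside it lay below 0. So did the mean of ENSMUST00000118649 within it, the apolipoprotein C-III precursor entry given above, which is no separate neighbour by that description. Its ratios (0.29, 0.26, -0.46 and -0.36) turned with the dye. Sik3, a kinase gene whose probe lies 5647 bases from that of Apoa1, had ratios of -0.53, -0.15, -0.33 and -0.51, and stood at -0.38 ± 0.18 (SD, n = 4; adjusted p = 0.101). Its ratio followed that of Apoa1 array by array: Sik3 minus Apoa1 was -0.043, 0.00013, 0.010 and -0.00086. These differences are smaller than the SD over Apoa1 spots within an array (0.053 to 0.10). Like the pairs above, this pair was picked after its values were seen and was not tested. How many other genes followed Apoa1 as closely was not counted. Zpr1, on the far side of the cluster, stood at -0.36 ± 0.23 (adjusted p = 0.0862), with levels that did not overlap between genotypes. Next to the Apoe cluster 7 of 9 genes lay below 0, between -0.08 and 0.22, the nearest being Tomm40 at 0.22, Nectin2 at -0.078 and Clptm1 at -0.0097. Next to Apom 12 of 19 genes lay above 0 and 7 below, with D17H6S53E at 0.0040, LOC100046040 at -0.14 and Gpank1 at -0.22 as the nearest, and none at or below the -0.71 of Apom. Next to Apoa2 8 of 14 genes lay above 0, with Fcer1g at 0.54, Nr1i3 at 0.11 and Tomm40l at -0.0014 as the nearest.

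The partners of these proteins were read from 6 lists of lipoprotein genes, and no gene of any list passed. Among 8 genes of plasma lipolysis (5 with an unadjusted p under 0.05), Angptl8, a secreted protein that blocks the lipase, had a ratio of 0.56 ± 0.51 (adjusted p = 0.0515). Its ratios were 0.085, 0.19, 0.80 and 1.15 on arrays 1 to 4, larger where IlrunKO carried Cy3. Lpl, lipoprotein lipase itself, stood at -0.34 ± 0.63 (adjusted p = 0.0680). The Lpl ratios were 0.27, 0.14, -0.81 and -0.95, so their sign turned with the dye as for Apoe. The list had 5 members above 0 and 3 below, with a median of 0.12.

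Among 12 genes of VLDL assembly (5 with an unadjusted p under 0.05), Apob, the protein that stays with VLDL, stood at -0.27 ± 0.23 (adjusted p = 0.178), Tm6sf2 at -0.18 (adjusted p = 0.139) and Smlr1 at 0.26 (adjusted p = 0.187). Of the list 5 lay above 0 and 7 below. Among 9 other apolipoprotein genes (1 with an unadjusted p under 0.05) 4 lay above 0 and 5 below, and Clu, a chaperone carried on HDL, stood at 0.32 (adjusted p = 0.253) and Apool at -0.035 (adjusted p = 0.848).

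Among 9 genes of HDL formation (4 with an unadjusted p under 0.05), the cholesterol exporter Abcg1 stood at 0.36 ± 0.23 (adjusted p = 0.0941), the protease Bmp1, which trims the Apoa1 precursor, at -0.28 (adjusted p = 0.195) and Lcat at -0.27 (adjusted p = 0.227). Among 10 lipoprotein receptors and regulators (1 with an unadjusted p under 0.05), Mylip, a ubiquitin ligase, stood at -0.25 (adjusted p = 0.149), the receptor gene Vldlr at 0.43 (adjusted p = 0.247) and the proteoglycan Sdc1 at -0.15 (adjusted p = 0.426). Among 24 transcription factors with known roles at apolipoprotein promoters (9 with an unadjusted p under 0.05), 9 lay above 0 and 15 below, with a median of -0.11. Rora stood at -0.29 ± 0.18 (adjusted p = 0.0608), Ppara at -0.18 ± 0.18 (adjusted p = 0.131) and Srebf1 at -0.17 ± 0.081 (adjusted p = 0.165), each below 0 on 4 of 4 arrays.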

How the data were processed

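Each array compared 1 IlrunKO with 1 WT liver, and the labels give the genotype and dye of each channel. The authors deposited scanner output with the raw intensity of each spot, which Agilent Feature Extraction (10.10.1.1) wrote, per the file headers. Its log10 ratio of Cy5 over Cy3, which the authors deposited beside the intensity, was not used. They also deposited a table of log2 ratios, whose direction (IlrunKO over WT) was checked against the recomputed ratios and which served as an alternative; its column medians were -0.039, -0.044, 0.04 and 0.036 on arrays 1 to 4, and how it was centred stays unknown. The submitters' processing notes name limma, with no version, and its settings are not stated there.

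The ratios of this report start from raw intensity (limma 3.58.1, R 4.3.3, package data.table, version 1.17.8): normexp background correction (offset 50), loess within arrays with control spots at weight 0, outlier spots left out, and spots of a probe averaged. Channel levels are log2 values after Aquantile between arrays. The brightest probe stood for a gene, which was kept if 3 of the 4 channels of either genotype were well above background. lmFit and eBayes with a dye term gave two-sided p, adjusted by Benjamini-Hochberg over 19702 genes (threshold 0.05); 2 residual degrees of freedom were left, and the fit was tested on simulated data. Gene names came from RefSeq accessions (26055 probes), symbols or synonyms (4125 probes), or else the files (9249 probes). The rule for names was all members, Ilrun, and, per list, genes that passed or else up to 3 with the smallest p (for neighbours, the nearest). Of the genes this rule names, 1 is not reported here. The members and lists were chosen with earlier results of these data known. Cluster means were not tested for that reason. Alternatives covered background correction, normalisation, filter, probe choice, variance model, dye term and each array left out.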

Additional observations from a re-analysis of the deposited data

Results flagged for a closer look

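Of 30 groups of 4 values looked at (ratios, IlrunKO levels and WT levels of the 10 members), 3 held a value set apart from the other 3 by Dixon's criterion (the gap to the nearest value over the range); chance flags about 1 in 20 groups. The Apoc2 ratio on array 1, 1.09, stood above those of the other arrays (0.60, 0.59 and 0.60). The Apoc2 level of IlrunKO mouse 2, 15.95, stood below those of the other IlrunKO mice (16.15, 16.12 and 16.15). The Apoa1 level of WT mouse 1, 15.84, stood above those of the other WT mice (15.64, 15.65 and 15.67). Without array 1, Apoc2 still passed, at 0.60 with an adjusted p of 0.0357, in a fit whose residual spread came from arrays 3 and 4 alone.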

How the results depend on the processing

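Apoc2 kept its sign in 17 of 17 alternatives (0.54 to 0.84) and passed in 11. It did not pass with Agilent processed signals (0.73, adjusted p = 0.0799), median centring (0.54, 0.365), the mean of a gene's probes (0.72, 0.0509), a trended robust variance (0.72, 0.258), or without array 3 or 4. Some alternatives left the ratio of a single-probe gene as it was, so its sign could not turn there. These were the dye term, Aquantile, both filters, the mean of probes, trended robust variance, array weights and the separate-channel model. Counts of kept signs in this section include those settings. Apom kept its sign in 17 of 17 (-0.87 to -0.58) and passed in 5: without the dye term (adjusted p = 0.0487), without background correction (0.0451), with the deposited values (0.0442), in the separate-channel model (0.00157) and without array 2 (0.0391). Apoa1, Apoc3, Apoa4, Apoa5 and Apoc4 kept their sign in 17 of 17 and passed in the separate-channel model only, but Apoc3 was near 0 with median centring (0.013, adjusted p = 0.972), and Apoa4 was -0.56 without array 4. Ilrun passed in 16 of 17, and missed with a trended robust variance (adjusted p = 0.258). Apoe turned to -0.0264 with median centring. Apoa2, near 0 throughout, turned to -0.0011 without background correction, -0.0104 with processed signals, -0.1862 with median centring and -0.02 with the mean of its probes, and to -0.0302 without array 3; leaving out 1 array gave -0.1538 to 0.1563.

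The number of members that passed was 2 without the dye term, where 181 of 19702 genes did. It was also 2 without background correction (445 of 19703 genes) and with the deposited values (458 of 19702). It was 0 with processed signals (83 of 19702 genes) and median centring (1 of 19702). It was also 0 with the mean of probes (230 of 19707) and a trended robust variance (0 of 19702). In the separate-channel model 7 members passed, where 2498 of 19566 genes did. At an adjusted p under 0.1 there were 4, where 1127 of 19702 genes (5.72%) passed. Leaving out 1 array gave 0 to 2 members. The number of genes that passed, 271, became 445 without background correction, 83 with processed signals, 1 with median centring, 458 with the deposited values, 0 with a trended robust variance (3564 with an unadjusted p under 0.05), 2498 in the separate-channel model and 1127 at an adjusted p under 0.1. It ranged from 1 to 470 with 1 array left out. Without array 3 or 4 the residual spread came from arrays 1 and 2 alone, and without array 1 or 2 from arrays 3 and 4 alone. In each case the lone array of the other orientation was assumed to vary like them. Over 18 alternatives the mean of the Apoe cluster ran from -0.04 to 0.20, that of the Apoa1 cluster from -0.31 to -0.047. Their difference ran from 0.12 to 0.44. Each move was less than 1 SD over arrays (0.47, 0.24 and 0.49, in that order). Those SDs were larger than the means themselves, so even the change of sign of the Apoe cluster counted as no move. The settings that left single-probe ratios as they were could not move the cluster means either. The count of 18 is therefore no measure of stability. The cause of these shifts was not tested. The number of arrays limits what can be seen.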
